A study of Mus musculus with 8 samples.

Results

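The FoxO transcription factors and the muscle ubiquitin ligases were taken as a set of 9 genes by name, out of 27179 genes in the deposited expression table. They fall into 3 families of 3 genes: the forkhead factors *Foxo1*, *Foxo3* and *Foxo4*, the F-box genes *Fbxo32* (atrogin-1), *Fbxo30* (MUSA1) and *Fbxo40*, and the RING-finger genes of the MuRF family, *Trim63* (MuRF1), *Trim54* (MuRF3) and *Trim55* (MuRF2). The RNA came from C2C12, an immortalized line of mouse myoblasts that fuse into multinucleated myotubes when serum is reduced. Proliferating cells (GM) were kept in high glucose DMEM with 10% fetal bovine serum and were harvested at 50% confluence, and differentiating cells (3d DM) were grown past 90% confluence and then held in DMEM with 2% horse serum for 3 days. Both states shared the line and collagen-coated dishes, and the labels give no transgene, deletion or drug for either. Each state had 2 input libraries of polyadenylated RNA and 2 libraries of the same kind of RNA precipitated with an antibody against N6-methyladenosine (m6A). The comparison asks how the RNA levels and the m6A marks of these genes differ between dividing and differentiating myoblasts. The labels do not say that the 2 libraries of a state came from separate cultures, so the spread between them may be technical. The p-values rest on such spread pooled over genes of similar level and hardly on a gene's own.

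FoxO factors are DNA-binding proteins that growth factor signalling keeps out of the nucleus through phosphorylation by Akt, and that turn on genes of protein breakdown when this signalling is low. In adult muscle, atrogin-1 and MuRF1 are the best known of these targets and are used as markers of atrophy. Atrogin-1, MUSA1 and Fbxo40 are F-box proteins, which bring substrates to the SCF ubiquitin ligase complex, whereas the MuRF proteins are themselves ligases that sit at the sarcomere and at microtubules. m6A is a methyl mark on adenosines of messenger RNA, placed mostly within the sequence DRACH (D is A, G or U, R is A or G, H is A, C or U) and most common around the end of the coding sequence.

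All 9 genes passed the filter on low values (2 cpm, or a value of 25.1, in no fewer than 2 of the 4 input libraries), as did 11406 genes in all. The summed value of 7 myotube markers was 5118.4 and 1171.3 in the GM libraries (replicates 1 and 2, here and throughout) against 96354.2 and 133740.9 in the 3d DM libraries, and that of 7 markers of dividing cells was 15102.3 and 17042.9 against 1985.2 and 3479.9. Of the single checks, *Mki67*, a marker of cycling cells, was 3586.0 and 3658.9 in GM against 446.3 and 760.4 in 3d DM. The GM replicate 1 library stood apart from GM replicate 2 in muscle genes: *Myog*, the myogenic factor myogenin, was 1007.8 against 220.8, *Myh3*, embryonic myosin, was 1067.7 against 273.0, *Ckm*, muscle creatine kinase, was 109.9 against 17.1, and *Mymk*, the fusion protein myomaker, was 697.8 against 101.4. The 6 macrophage markers summed to between 19.1 and 26.4 and the 4 endothelial markers to between 0.0 and 10.4 over the 4 libraries. The adipocyte sum (44.5 to 146.1) was nearly all *Pparg*, with *Adipoq*, *Plin1*, *Fabp4* and *Lep* at 0.0, the osteoblast sum (239.9 to 674.3) was mostly *Runx2*, with *Ibsp* and *Alpl* at 0.0, and the neuron and glia sum (499.7 to 1793.3) was mostly *Tubb3*, with *Rbfox3* at 0.0.

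Of the 9 genes, 5 were higher in 3d DM and 0 were lower (limma on log2(value + 1), Benjamini-Hochberg adjusted over all tested genes, threshold 0.05). Over all tested genes, 7.01% were called higher and 9.96% lower. The 5 include *Fbxo40*, which passed the filter through the 3d DM libraries alone and so had to differ. It is also among the counts of 7, 6 and 7 genes in the next sentences, which are a description and not support for a direction of the set. With the filter of 3 libraries, which removes it, 4 of 8 genes were called higher (6 at an unadjusted p under 0.05), where 524 of 10769 genes were called higher in all. The median log2 fold change (3d DM over GM) of the 9 genes was 1.40, beside -0.22 for all tested genes. At an unadjusted p under 0.05, 7 of the 9 were higher and 0 were lower. The share of all tested genes at an unadjusted p was not taken. Counts at that threshold, here and below, thus have no background, and the shares given belong to adjusted calls. The standard errors of this fit follow the expression level and hardly reflect a gene's own replicates. The ratio of the GM replicates was 3.55 for *Fbxo32* and 0.95 for *Foxo3*, with standard errors of 0.445 and 0.488. The values of the 2 states did not overlap for 6 genes, all higher in 3d DM, a pattern that 16.8% of all tested genes had. The opposite pattern, found in 37.0% of all tested genes, was found in 0 of the 9. The median-of-ratios factors of the deposited values were higher in GM by 0.23 on the log2 scale. Rescaling by these factors takes most genes to be unchanged between the states, which was not tested. After it, 7 of the 9 genes were called higher, where 12.0% of all tested genes were. The median log2 fold change of the 9 genes was then 1.63. Over all genes, the split was 800 higher and 1136 lower as deposited and 1369 higher and 1275 lower after rescaling. In bulk RNA, a change in the share of cells that express a gene and a change in the RNA per cell cannot be told apart, and this holds for every level below.

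**Figure D1:**
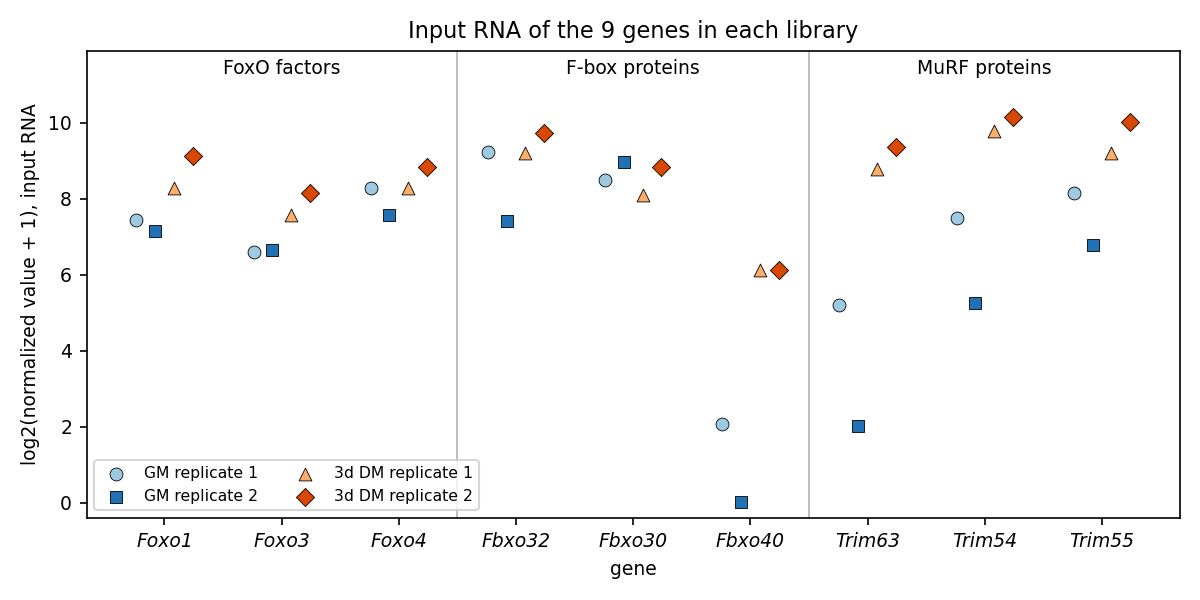
Input RNA of the 9 genes, as log2(normalized value + 1) on the vertical axis, with 1 point for each of the 4 libraries and the genes grouped by family. For *Foxo1*, *Foxo3*, *Fbxo40*, *Trim63*, *Trim54* and *Trim55*, both 3d DM points lie above both GM points, and in the MuRF family and *Fbxo32* the GM replicate 1 point lies well above the GM replicate 2 point.

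Among the FoxO factors, *Foxo1* was the only one called with the deposited values. *Foxo1* was 172.4 and 142.5 in GM against 309.3 and 555.5 in 3d DM, and its log2 fold change was 1.40 (SE 0.465, limma adjusted p = 0.0194). Both 3d DM libraries were above both GM libraries, although 3d DM replicate 2 was 1.80 times replicate 1. The median-of-ratios factors of 3d DM replicates 1 and 2 were -0.365 and 0.14 on the log2 scale, so replicate 2 read higher over genes at large. The call was lost when any single library was left out, with log2 fold changes of 0.98 to 1.82.

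*Foxo3*, the family member most closely tied to atrophy and autophagy in adult muscle, was 95.58 and 100.3 in GM against 189.8 and 285.1 in 3d DM. The groups did not overlap, and the log2 fold change of 1.24 (SE 0.488) missed the threshold as deposited (limma adjusted p = 0.0615) and passed after rescaling (1.47, limma adjusted p = 0.0096). *Foxo4* was 313.5 and 189.7 in GM against 310.2 and 454.5 in 3d DM, so that GM replicate 1 lay between the 3d DM libraries. Its log2 fold change was 0.62 (SE 0.459, limma adjusted p = 0.431), and 0.85 after rescaling (limma adjusted p = 0.0476). *Foxo6*, the remaining gene of the family and not among the 9, was 111.7 and 44.2 in GM against 204.4 and 380.9 in 3d DM (log2 fold change 1.97, SE 0.49, limma adjusted p = 0.000743). Per kilobase of exon, *Foxo4* was the most abundant of the 3 factors in every library and made up 59.7 to 68.7% of their summed level in GM and 50.3 to 54.0% in 3d DM. The share of *Foxo1* was 21.5 and 25.6% in GM against 30.7 and 35.0% in 3d DM.

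Of the 3 F-box genes, *Fbxo40* was near 0 in GM and present in 3d DM, and *Fbxo32* and *Fbxo30* were not called. *Fbxo40*, whose product targets the insulin receptor substrate IRS1 in muscle, was 3.216 and 0.003 in GM against 68.64 and 68.42 in 3d DM. Both GM values were below the filter on low values and both 3d DM values above it, so its difference is given as a description, with no test. Its log2 fold change of 5.08 depends on the pseudocount and ran from 3.75 with 4 to 6.88 with 0.1.

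*Fbxo32*, which encodes atrogin-1, was 598.7 and 168.6 in GM against 586.8 and 846.7 in 3d DM. GM replicate 1 was at the level of 3d DM replicate 1 and was 3.55 times GM replicate 2. The log2 fold change was 1.15 (SE 0.445) and missed the threshold (limma adjusted p = 0.0569, and 0.0992 after rescaling). Without GM replicate 1 it was 2.06 and passed (limma adjusted p = 0.0387), and without GM replicate 2 it was 0.24 (limma adjusted p = 0.966). *Fbxo30*, which encodes MUSA1, a ligase known from denervated muscle, was 362.5 and 496.7 in GM against 273.3 and 457.7 in 3d DM, with overlapping groups and a log2 fold change of -0.26 (SE 0.451, limma adjusted p = 0.799). Per kilobase of exon, *Fbxo30* made up 44.9 and 80.0% of the F-box sum in GM and 35.5 and 39.9% in 3d DM, *Fbxo32* made up 54.7 and 20.0% in GM against 56.2 and 54.5% in 3d DM, and *Fbxo40* reached 8.3 and 5.6% in 3d DM.

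All 3 MuRF genes were higher in 3d DM. *Trim63*, the gene of MuRF1, which ubiquitinates myosin and other thick filament proteins, was 36.16 and 3.036 in GM against 440.9 and 663.2 in 3d DM. Both 3d DM libraries were far above both GM libraries, and the log2 fold change was 5.47 (SE 0.529, limma adjusted p = 8.02e-23). After median-of-ratios rescaling it was 5.69, with a far larger p-value (limma adjusted p = 0.0101). GM replicate 1 was 11.91 times GM replicate 2, and the log2 fold change was 7.07 without the first and 3.87 without the second.

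*Trim54*, the gene of MuRF3, a protein that binds and stabilizes microtubules in muscle cells, was 178.2 and 37.17 in GM against 878.6 and 1140 in 3d DM. The groups did not overlap, with a log2 fold change of 3.60 (SE 0.461, limma adjusted p = 3.94e-13). *Trim55*, the gene of MuRF2, which associates with microtubules and with titin at the M-band, was 286.3 and 109.4 in GM against 593.7 and 1048 in 3d DM, again without overlap (log2 fold change 2.15, SE 0.452, limma adjusted p = 3.36e-05). After median-of-ratios rescaling the log2 fold changes were 3.83 for *Trim54* and 2.38 for *Trim55* (limma adjusted p = 0.0103 and 0.0109). GM replicate 1 was 4.79 times GM replicate 2 for *Trim54* and 2.62 times for *Trim55*. The same library was higher in the muscle genes given above, and the part of this in the levels of the MuRF genes was not tested. Without GM replicate 1, the log2 fold changes were 4.71 for *Trim54* and 2.84 for *Trim55*, and without GM replicate 2 they were 2.48 and 1.46, the latter no longer past the threshold (limma adjusted p = 0.279). With either 3d DM library left out, so that the spread came from the GM libraries alone, 0 of the 9 genes were called by limma (6 and 4 at an unadjusted p under 0.05, without 3d DM replicates 1 and 2), where 101 and 196 of all tested genes were called higher. The log2 fold changes themselves stayed at 5.76 and 5.17 for *Trim63*, 3.79 and 3.41 for *Trim54* and 2.56 and 1.74 for *Trim55* in these fits.

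**Figure D2:**
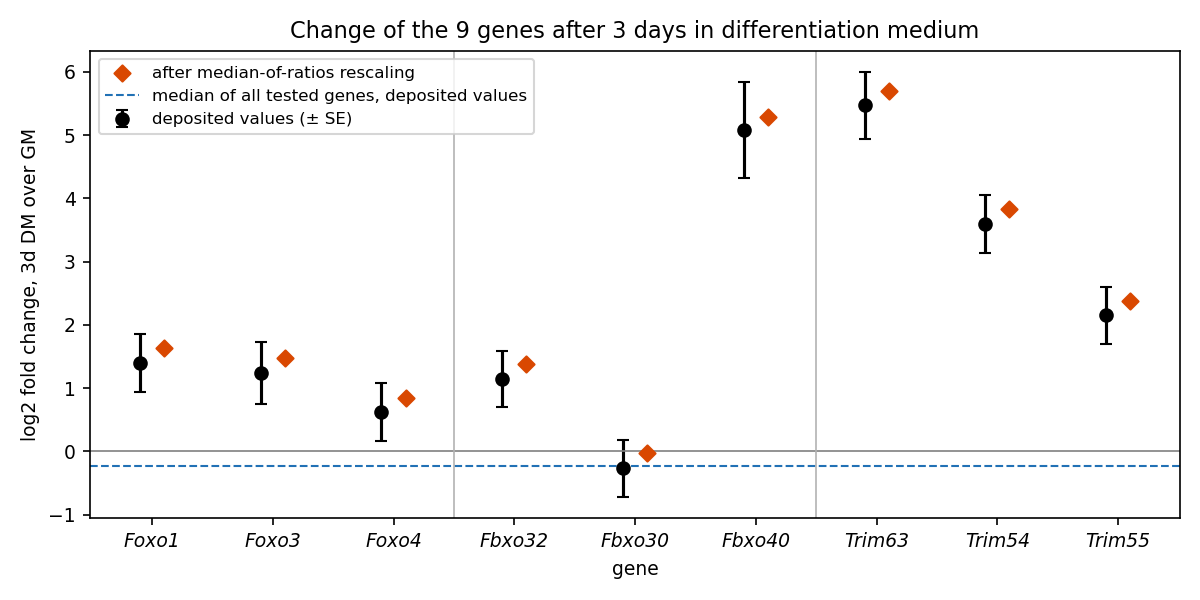
Log2 fold change of the 9 genes, 3d DM over GM, on the vertical axis. Circles are the deposited values with bars of ± 1 SE from limma, diamonds the values after median-of-ratios rescaling, and the dashed line is the median of all tested genes (-0.22). *Trim63* (5.47) and *Fbxo40* (5.08) lie highest and *Fbxo30* (-0.26) lies at the level of the dashed line.

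Per kilobase of exon, the MuRF genes divided their summed level differently in the 2 states, with *Trim63* holding a higher share in both 3d DM libraries. It made up 6.9 and 2.1% of the family sum in GM and 20.2 and 21.1% in 3d DM. *Trim55* went the other way, from 43.8 and 60.6% to 21.7 and 26.6%, and *Trim54* held 49.3 and 37.3% in GM against 58.1 and 52.3% in 3d DM. Across the 9 genes, both 3d DM libraries gave the same order per kilobase: *Trim54* (573.5 and 743.84), *Trim55* (214.17 and 378.18), *Trim63* (199.77 and 300.51), *Foxo4* (98.1 and 143.74), *Fbxo32* (84.6 and 122.07), *Foxo1* (55.72 and 100.05), *Fbxo30* (53.45 and 89.49), *Foxo3* (27.97 and 42.0) and *Fbxo40* (12.49 and 12.45). The ranges of neighbouring genes overlapped from *Trim55* to *Trim63* and from *Foxo4* through *Fbxo32* and *Foxo1* to *Fbxo30*, whereas *Trim54*, *Foxo3* and *Fbxo40* stood clear of theirs. All genes were measured in the same libraries, so overlapping ranges do not show that neighbours were alike, and their differences were not tested. In GM the order differed between the libraries, with *Trim54* (116.33) first in GM replicate 1 and *Fbxo30* (97.13) first in GM replicate 2. *Fbxo40* was last in both.

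The 250 bases before to 50 bases after the start of transcription, from RefSeq (GRCm38.p6), were searched for 2 motifs: the FoxO core GTAAACA, which other forkhead factors also bind, and the E-box CAGCTG, which MyoD and myogenin bind and which reads the same on both strands. Both strands were searched, and the motifs do not overlap each other in these windows. The table held 7 promoters for 6 of the 9 genes (*Foxo1*, *Foxo3*, *Fbxo30*, *Fbxo40*, *Trim63* and *Trim54*). The FoxO core was found in *Trim63* alone, and 3.65% of all 32851 promoters held it. The E-box was found in *Trim63*, *Trim54* and *Fbxo40*, and 16.3% of all promoters held it. These windows are shown because they hold a match, which none of the other genes searched did. *Foxo4*, *Fbxo32* and *Trim55* were not in the promoter table and so were not searched. The capitals mark the motif, and the sequences are read on the gene's own strand. The FoxO core in *Trim63* starts 194 bases before the start of transcription (chr4:134314916-134314942, plus strand) and the E-box 72 bases before it (chr4:134315038-134315063, plus strand), that of *Trim54* 113 bases before (chr5:31116489-31116514, plus strand), and that of *Fbxo40* nearest to a start 53 bases before (chr16:36990505-36990530, minus strand).
Trim63 FoxO core: agtctgttctTGTTTACgacccccacg
Trim63 E-box: gcggaatgctCAGCTGgtcccctcct
Trim54 E-box: agtccggggaCAGCTGtggctcacct
Fbxo40 E-box: ctcctggacaCAGCTGgacctgccca
A match describes the letters in the window and not the binding of a factor.

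The peak lists give, for each immunoprecipitated library against its own input, the place and the fold enrichment of m6A peaks. After overlapping lines were merged, the GM lists held 14 and 14 peaks of the 9 genes and the 3d DM lists 19 and 15, on 7, 7, 9 and 8 of the genes. All 9 thus had a peak in at least 1 list, as 75.1% of all tested genes did. All but *Trim63* and *Fbxo40*, 7 genes, had a peak in all 4 lists, as 42.0% of all tested genes did. *Trim63* had peaks in both 3d DM lists and in no GM list, a pattern of 1.72% of all tested genes, and *Fbxo40* had 2 peaks in 3d DM replicate 1 alone. These are the genes with the lowest RNA in GM, and the lists cannot tell a missing mark from RNA too scarce for a peak to be called. With only peaks of a p-value of at most 1e-05, 4 genes had a peak in both GM lists and 6 in both 3d DM lists. The share of all tested genes at this threshold was not taken, so these counts do not show a difference of the states.

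Most of the peaks lay around or after the end of the coding sequence. On the *Trim63* transcript, the main peak ran from 273 nt before to 295 nt after this end in 3d DM replicate 1 (fold enrichment 4.31) and from 243 nt before to 116 nt after it in replicate 2 (5.09). The *Fbxo32* peak lay in the 3′ untranslated region (UTR), from 139 to 438 nt after the coding sequence in GM replicate 1, and began between 11 nt before and 79 nt after its end in the other lists. The *Trim55* peak also lay in the 3′ UTR, beginning 166 and 47 nt after the end in GM and 17 nt after it in both 3d DM lists. The *Trim54* peak crossed the end in all lists but that of GM replicate 1, where it stopped 44 nt short. *Foxo4* differed in position, with its shared region at the 5′ end, at least 1094 nt before the end of the coding sequence. A peak spanned the start of the coding sequence (nt 294) in all lists but that of 3d DM replicate 2, whose peak (nt 538 to 627) lay inside it. *Fbxo30* had a pair of shared regions within its coding sequence, of which the downstream region reached 28 nt into the 3′ UTR in both GM lists. The remaining peaks included 1 in the coding sequence of *Trim55* (fold enrichment 2.85 and 3.88) and 1 at the 5′ end of *Trim54* (1.79 and 3.06), each in both 3d DM lists and in no GM list. Both genes had less RNA in GM than in 3d DM. For these peaks too, the lists cannot tell a missing mark from RNA too scarce for a peak to be called.

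**Figure D3:**
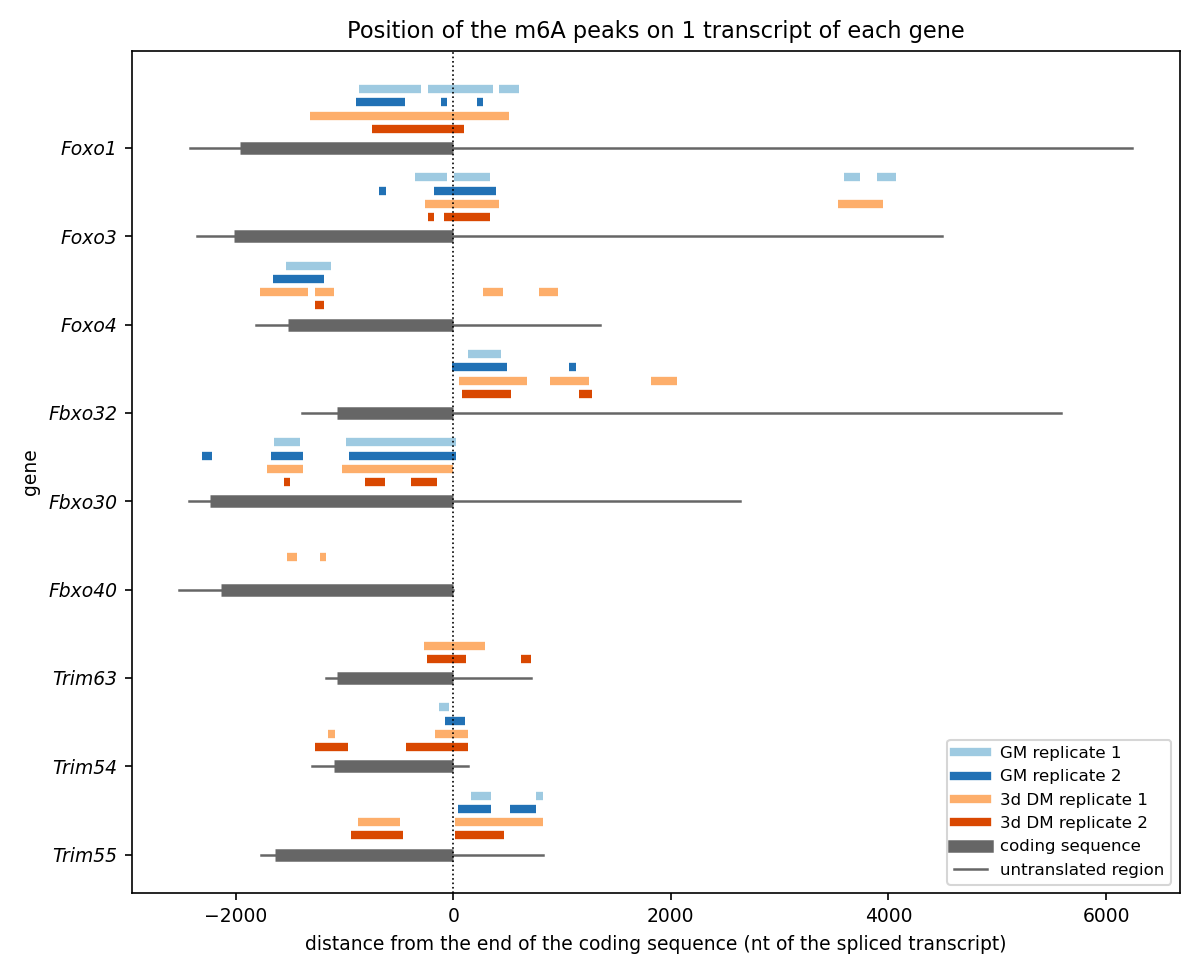
m6A peaks (coloured bars, 1 row for each of the 4 lists) on 1 GENCODE M21 transcript of each gene, drawn to scale against the distance from the end of the coding sequence in nucleotides of the spliced transcript. Thick grey bars are coding sequences and thin lines untranslated regions. The peaks of *Foxo3*, *Fbxo32*, *Trim63*, *Trim54* and *Trim55* gather at the dotted line or just after it, those of *Foxo4* lie mainly at the 5′ end, and *Trim63* and *Fbxo40* have no GM bar.

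Merged over the lists, the peaks of the 9 genes formed 21 regions, of which 8 held a peak in all 4 lists. Fold enrichment at these is the ratio of immunoprecipitated over input RNA, so that the RNA level is already divided out by the peak caller, and the highest fold in a region was used for each list. At the *Foxo1* region (chr3:52345061-52347585, mm10, plus strand), the fold was 24.5 and 20.3 in GM against 7.17 and 7.79 in 3d DM. Both 3d DM folds were below both GM folds, and the mean log2 difference was -1.58. The GM folds are the highest of 3 separate peaks in the region, and the others had folds of 6.71 and 8.31 in GM replicate 1 and of 12.5 and 3.6 in GM replicate 2, around the fold of the single wide peak in each 3d DM list. At the *Foxo3* region (chr10:42185905-42196894, minus strand, the coordinates spanning introns), the fold was 11.7 and 17.6 in GM against 8.36 and 5.26 in 3d DM, again without overlap, with a log2 difference of -1.11. These were 2 of 8 regions with both 3d DM folds below both GM folds, as were 21.8% of the 6055 regions of all genes with a peak in all 4 lists. The opposite order was found at 0 of the 8 regions and at 9.13% of all. The exact permutation test gave p = 0.33 for both (two-sided), the smallest that 2 libraries against 2 allow, and 0.889 when adjusted over the 8 regions. The lines that carried these folds differed in width, with 571 and 451 nt for *Foxo1* in GM against 1830 and 840 nt in 3d DM, and the part of the width in the fold was not tested. Both *Foxo1* and *Foxo3* had higher RNA values in both 3d DM libraries than in both GM libraries, as given above.

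At the other 6 regions the folds of the states overlapped. The *Fbxo32* region (chr15:58180788-58181477, minus strand) had the highest fold of all, 28.0 in GM replicate 1, but 8.93 in GM replicate 2 and 10.0 and 8.63 in 3d DM, so that a single library set the log2 difference of -0.77, which was 0.06 without it. The *Trim54* region (chr5:31136096-31137630) had folds of 5.54 and 4.11 in GM against 2.29 and 4.44 in 3d DM, and the *Trim55* region (chr3:19691616-19692421) 7.29 and 3.78 against 3.37 and 4.56. The *Foxo4* region (chrX:101254558-101255244) had folds of 4.20 and 4.54 in GM against 7.67 and 2.81 in 3d DM. For *Fbxo30*, the upstream region (chr10:11290065-11290397) had folds of 3.56 and 6.78 in GM against 5.34 and 2.44 in 3d DM, and the downstream region (chr10:11290747-11295488) had 6.07 and 5.22 against 7 and 4.18. *Trim54* and *Trim55*, both called higher in RNA, thus had shared regions whose folds overlapped between the states. The exact permutation p was 0.667 to 1 at these 6 regions. The median log2 difference was -0.51 over the 8 regions and -0.11 over all 6055.

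**Figure D4:**
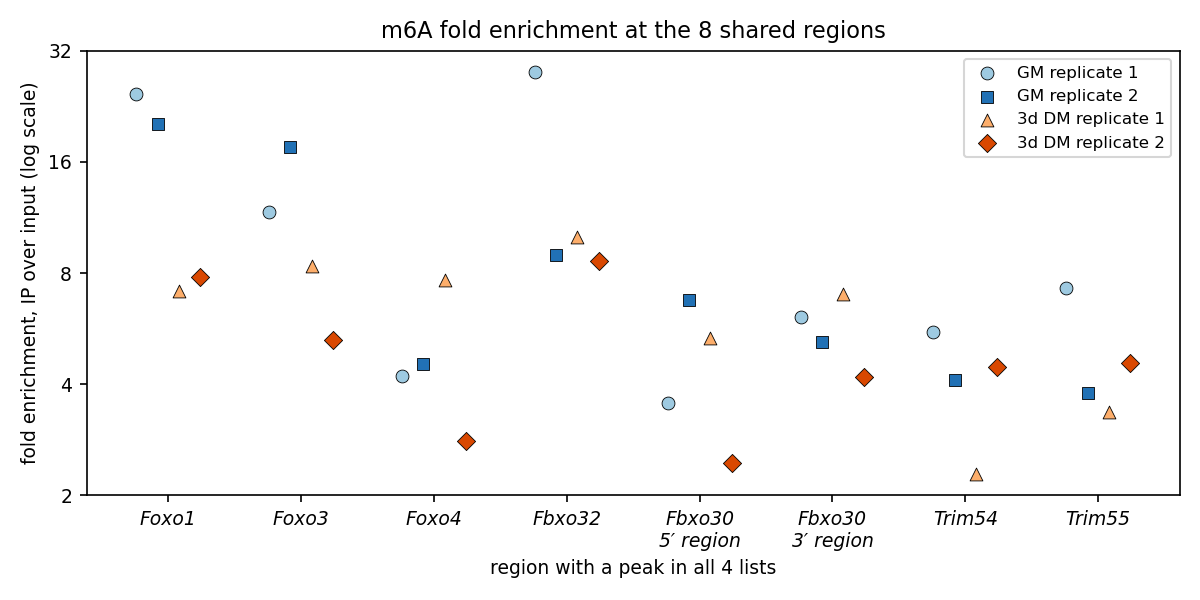
Fold enrichment of immunoprecipitated over input RNA (vertical axis, log scale) at the 8 regions of the 9 genes with a peak in all 4 lists, with 1 point for each list. The 3d DM points lie below both GM points at *Foxo1* and *Foxo3*, and at *Fbxo32* the GM replicate 1 point (28.0) stands apart from the other 3 lists.

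DRACH sites under the peaks are shown for 4 genes, 2 for the regions whose folds did not overlap (*Foxo1* and *Foxo3*), 1 for the highest fold (*Fbxo32*) and 1 for the gene with peaks in both 3d DM lists and in no GM list (*Trim63*). Each is the DRACH covered by the most lists, with GGAC preferred and the site nearest to the middle of the narrowest peak taken where several were covered as often. The motif is in capitals and T stands for U. The *Foxo1* site (chr3:52345776-52345800, plus strand) lies in the coding sequence, 588 nt before its end. The *Foxo3* (chr10:42186220-42186244, minus strand) and *Fbxo32* (chr15:58181181-58181205, minus strand) sites lie 99 and 273 nt after it in the 3′ UTR, and all 3 are covered by 4 lists. The *Trim63* site (chr4:134325649-134325673, plus strand) lies in the coding sequence, 136 nt before its end, under the peaks of both 3d DM lists.
Foxo1: ctgtgccccaGGACTcttgaaagag
Foxo3: ctcagcaagtGGACAgtgatccgtt
Fbxo32: ataaaggcaaGAACTctatgtcagc
Trim63: actttactctGGACTtagaacacat
Of the 48 GGACT sites on the 9 transcripts, 19 lay under a peak, or 1.88 per kb under peaks and 1.00 per kb elsewhere, and DRACH sites came to 22.1 and 20.5 per kb. In windows of 201 nt at the centres of the shared peaks, GGACT was present in 1 of 8 for these genes and in 26.8% of 5553 for all genes. Peaks are wider than a site and hold several DRACH sequences (the *Foxo1* site shown was 1 of 12 covered by all 4 lists), so the methylated base itself cannot be named from these lists.

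The other genes of the pathway were described with lists by role. Of 16 other ubiquitin ligases of muscle, 3 were higher in 3d DM and 0 lower (limma, also 3 and 0 at an unadjusted p under 0.05). Over all tested genes, the adjusted calls were 7.01% higher and 9.96% lower. The 3 included *Klhl41* (204.5 and 51.2 in GM, 3230.2 and 4284.0 in 3d DM, log2 fold change 5.17) and *Klhl40* (52.9 and 15.1, 653.2 and 859.9, 4.67), sarcomeric Kelch proteins that serve as adaptors or stabilizers. The last was *Asb2* (13.9 and 2.0, 80.0 and 142.5, 4.01), an adaptor that targets filamins. Both GM values of *Asb2* were below the filter on low values, so it passed through the 3d DM libraries alone and had to differ. Most of the 16 were thus not called, and their median log2 fold change was 0.14. Of 14 genes of the SCF core and of ubiquitin conjugation and of 31 proteasome subunits, 0 were called in either direction, also at an unadjusted p under 0.05. The log2 fold changes of these 2 lists ranged from -0.75 to 0.42 and from -0.77 to 0.67, and those of the 16 ligases from -0.78 to 5.17. The medians of the 2 lists were -0.01 and -0.12, beside -0.22 for all tested genes. After rescaling, 1 proteasome subunit was called higher.

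Of 18 autophagy genes under FoxO, 4 were higher as deposited at an unadjusted p under 0.05, for which no share of all genes was taken. After rescaling, 4 were called higher, where 12.0% of all tested genes were. With the adjusted threshold and the deposited values, 2 were higher, where 7.01% of all tested genes were. The 2 were *Pink1*, a kinase of damaged mitochondria (345.3 and 107.4 in GM, 678.6 and 805.7 in 3d DM, log2 fold change 1.93, limma adjusted p = 0.000257), and *Map1lc3a*, an LC3 protein of the autophagosome (702.8 and 182.7, 1050.3 and 1414.9, 1.76, limma adjusted p = 0.000668). Of 19 other FoxO targets, 3 were higher and 1 lower, beside 7.01% and 9.96% of all tested genes. The higher ones were *Cdkn1a*, the cell cycle inhibitor p21 (3444.5 and 1416.0 in GM, 15897.3 and 19014.1 in 3d DM, log2 fold change 2.98), the growth arrest gene *Gadd45a* (352.5 and 144.5, 1021.1 and 1560.9, 2.48) and the repressor *Bcl6* (175.6 and 145.5, 433.5 and 742.6, 1.82). *Cited2*, a regulator of CBP/p300, was lower (2675.5 and 2581.1, 1085.9 and 1303.7, -1.14). *Cdkn1a* and *Gadd45a* are also known as genes of myoblasts that leave the cell cycle, and FoxO activity was not measured here.

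Of 24 kinases and cofactors that act on FoxO proteins, 1 was higher and 2 were lower, and 5 and 3 after rescaling. These counts are to be read against the 7.01% higher and 9.96% lower (12.0% higher after rescaling) of all tested genes. *Prkaa2*, a catalytic subunit of AMPK, was 9.3 and 23.1 in GM against 240.4 and 268.3 in 3d DM (log2 fold change 4.02). This gene, the 1 counted as higher, had both GM values below the filter on low values. It passed through the 3d DM libraries alone and so had to differ, and its difference is given as a description, with no test. *Skp2*, an F-box protein that targets FOXO1, was 404.5 and 539.9 against 74.9 and 136.6 (-2.20, limma adjusted p = 5.05e-05), and the nuclear exporter *Xpo1* was 2090.9 and 2648.3 against 611.3 and 943.0 (-1.63, limma adjusted p = 0.00126). Of 21 substrates and partners of atrogin-1 and the MuRF proteins, 13 were higher and 1 lower, beside 7.01% and 9.96% of all tested genes. The median log2 fold change of the 21 was 4.42. *Myl2*, a myosin light chain, was listed at 0.0 in both GM libraries and was 506.8 and 322.3 in 3d DM. *Myh3* was 33484.7 and 51673.6 in 3d DM (6.26) and *Mybpc1*, a myosin-binding protein, was 2.1 and 0.0 in GM against 120.1 and 138.1 in 3d DM. *Myl2* and *Mybpc1*, both counted among the 13, passed the filter through the 3d DM libraries alone and so had to differ. Others of the 13 that are not named here may have passed in the same way. Over all lists by role, 23 genes were called higher, and 17 with the filter of 3 libraries. The count of 13 is therefore a description and not support for a direction of the list. *Vim*, the intermediate filament vimentin, was lower (38643.2 and 41759.8 in GM, 9850.6 and 12291.8 in 3d DM, -1.87). This list is largely sarcomeric, and *Myh3* and *Ckm* in it are also among the 7 myotube markers.

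For each of the 9 genes, the 2 tested genes with the most similar pattern over the 4 input libraries were found by the root mean square distance of log2 values centred on each gene's mean. For *Trim63* these were *Mypn*, the sarcomere protein myopalladin (distance 0.166), and *Tnnt1*, slow troponin T (0.249), and only these 2 genes lay within 0.25. For *Fbxo40* they were *Neb*, the thin filament protein nebulin (0.090), and *Gprc5c* (0.096), with 14 genes within 0.25. *Trim54* was nearest to *Prkg1* (0.135) and to the muscle calpain *Capn3* (0.145), with 16 genes within 0.25, and *Trim55* to *Hecw2* (0.049) and *Cobl* (0.064), with 44. *Fbxo32* was nearest to *Cd200* (0.049) and *Cp* (0.077), with 111 genes within 0.25. More genes lay within 0.25 of the FoxO genes and of *Fbxo30*. The values were centred but not scaled, so a gene with a small change has more neighbours, and the counts largely follow the size of change. There were 176 genes within 0.25 of *Foxo1* (nearest *Tbx18* and *2310022B05Rik*), 235 of *Foxo3* (*Usp53* and *Plekhh1*), 1239 of *Foxo4* (*Tmem160* and *Ginm1*) and 2051 of *Fbxo30*. The 4 libraries are shared by all genes, so these distances are a description of the same libraries.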

How the data were processed

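The deposited files covered C2C12 myoblasts in GM and in 3d DM, each with 2 input libraries (RNA-seq) and 2 immunoprecipitated libraries (MeRIP-seq). Per the submitters' processing notes, the authors aligned reads to mm10 with HISAT2 (2.1.0) and handled gene counts with edgeR. The table deposited by the authors gives a normalized signal per gene, labelled TMM (trimmed mean of M values). Reads could not be recovered from it, so edgeR was not run and the depth is unknown. Its columns sum to between 12534657 and 12536233, which is not a depth. The largest entry, which had no symbol here, made up 24.4 and 33.2% of the GM columns and 41.3 and 25.6% of the 3d DM columns. The filter of 2 cpm uses the column totals. The part of this entry in the filter and in the lower reading of 3d DM replicate 1 was not tested. The authors called peaks with exomePeak for each sample, and for every peak and transcript the 4 deposited lists give a p-value and the fold of immunoprecipitated over input RNA, without read numbers, so no counting error or floor is given.

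The 9 genes and all gene lists were chosen with earlier results of these data known. Expression was compared with limma 3.58.1 (R 4.3.3, intensity trend, two-sided) on log2(value + 1) for 11406 genes. A gene was tested where 2 or more libraries reached 2 cpm, that is 25.1 in these columns. The step was also run on simulated data in which all genes had the same spread. That run does not bear on genes whose replicates differ as widely as those of *Trim63* in GM. Symbols were found by Entrez identifier for 98.7% of tested genes. Levels per kilobase used the merged exons of curated RefSeq transcripts. Peak lines that shared at least 1 bp of exon were merged, and positions, motifs and sequences were taken from GENCODE M21 transcripts and RefSeq promoters (GRCm38.p6, the build mm10) with Python 3.11.15, pandas 2.3.3, numpy 2.4.6, scipy 1.17.1 and matplotlib 3.10.9.

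The genes named are the 9, *Myog*, *Myh3*, *Ckm*, *Mymk* and *Mki67*, up to 3 called genes in each direction from each list by size of change, and the 2 nearest genes of each of the 9, of which those of *Fbxo30* are not reported here. Marker genes at 0.0 or making up most of a marker sum were named after their values were seen. Other filters, pseudocounts, scalings, peak thresholds and overlaps, the replicate block and each library left out were run as alternatives. No library was left out of the main results.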

Additional observations from a re-analysis of the deposited data

How the results depend on the processing

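Of the 9 genes, the number called higher in 3d DM by limma was 4 to 7 under the other filters, pseudocounts, scalings and trend, against 5 as reported: 7 after either rescaling (*Foxo3* and *Foxo4* added), 6 without the trend (*Foxo3* added) and 4 with the filter of 3 libraries, which removes *Fbxo40*. With each library left out it ran from 0 (without either 3d DM replicate) through 3 (without GM replicate 2) to 5 (without GM replicate 1), and in these fits the lone library of a state is assumed to vary like the others. The genes of the lists called higher numbered 30 after either rescaling and 17 with the filter of 3 libraries, and ran from 6 to 23 with each library left out, against 23, and those called lower from 0 to 2, against 4. With a peak p-value of at most 1e-05, 4 genes had a peak in both GM lists, against 7, and 3 shared regions were left, against 8. With a fold of at least 4, 5 genes had a peak in both 3d DM lists, against 8. *Foxo1* and *Foxo3* kept both 3d DM folds below both GM folds under the other overlap, fold and threshold. With each library left out in turn, the log2 fold change of *Fbxo30* ran from -0.63 to 0.11, turning positive without 3d DM replicate 1. Log2 differences of fold enrichment, over the same fits, ran from -0.43 to 0.31 at the downstream *Fbxo30* region (0.05 without GM replicate 1, 0.31 without 3d DM replicate 2), from -1.01 to 0.12 at the upstream one (0.02 without GM replicate 2, 0.12 without 3d DM replicate 2), from -1.59 to 0.06 at *Fbxo32* and from -0.90 to 0.05 at *Trim55* (both positive without GM replicate 1), and from -0.64 to 0.81 at *Foxo4* (negative without 3d DM replicate 1). The causes were not tested.

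The libraries share only a replicate number, and with 2 pairs the deviations of GM and 3d DM from their means correlated at 0.29 across genes, which does not show that the numbers pair them. With the replicate block, 4 of the 9 genes were called higher: *Foxo1* was lost (1.40, limma adjusted p = 0.106), and over all genes 593 were higher and 705 lower, against 800 and 1136. The depth of the libraries is unknown, so whether the absence of a GM peak on *Trim63* and *Fbxo40* lies below what the lists could detect cannot be seen.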
